A study of Mus musculus with 12 samples.

Results

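The regions described here were the Argonaute-2 (Ago2) eCLIP peaks of mouse skeletal muscle that fell on noncoding exons outside microRNA genes. eCLIP crosslinks a protein to the RNA it touches, pulls the protein down and sequences the attached RNA (in the chimeric form used here, after a step that joins a microRNA to its target), and a peak is a stretch of transcript where reads pile up. A listed peak was a member when its midpoint lay in a GENCODE M21 exon on the same strand, in no coding or untranslated exon part on that strand, and in no gene typed as miRNA. No threshold on the measured values entered this choice. Of 713343 listed peaks in 4 libraries, 19483 (2.73%) were members. They numbered 2617 of 92451 in WT set 1, 3344 of 119859 in KO set 1, 6614 of 244814 in WT set 2 and 6908 of 256219 in KO set 2. As a share of the list this was 2.76% ± 0.0665 (SD, n = 4 libraries).

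Each library was a total Ago2 immunoprecipitate of tibialis anterior muscle from male mice aged 6 months, with an input library of its own. The WT animals carried the strain label C57BL/6. The mir-486 KO animals (miR-486-/-), a germline CRISPR deletion in the miR-486 hairpin of the Ank1 gene in every cell, carried the label FVB N/J, while the methods describe backcrossing to C57BL/6J, so genotype and labelled strain cannot be told apart. The lists of WT set 1 and WT set 2, and those of KO set 1 and KO set 2, are called the sets 1 and 2 here, after the shared start of the library titles. Each genotype had 2 such libraries, and no source used here says whether the sets came from different mice, so the spread between them may be technical. The series design text gives 3 samples per genotype in one passage and 5 in another, run in duplicate, and whether muscles were pooled is not stated in the sources used here. In bulk muscle, fewer cells of a type and less RNA per cell cannot be told apart.

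The targeted gene followed the labels. Mir486 had 3 listed peaks in WT set 1 and 6 in WT set 2, all enriched over input, and none in either KO library. All 6 skeletal muscle markers had listed peaks in every library and both T-cell markers had none. The 3 B-cell markers had 13 peaks in WT set 2 and none in the other libraries, and the 3 macrophage markers had 5, 6, 41 and 27 peaks in WT set 1, KO set 1, WT set 2 and KO set 2.

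Ago2 is the protein that holds a microRNA and lets its seed, the bases near the 5′ end, pair with target RNA. Most known targets are messenger RNAs, but long noncoding RNAs in the cytoplasm can also pair with microRNAs. Small nucleolar RNAs (snoRNAs) guide chemical modification of ribosomal RNA, spliceosomal small nuclear RNAs (snRNAs) cut out introns, and both work mainly in the nucleus. Pseudogenes are copies of genes that no longer encode the protein, and an RNA read from a recent copy can match its parent gene equally well.

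The sequences below are shown because they lie at members described further on and hold either a word identical to a microRNA or a word complementary to a seed. All but Gm12522 and 4930444E06Rik are from genes enriched in every library, and 4930444E06Rik had members in KO set 1 only. Mature microRNAs are from RefSeq, with the seed (bases 2 to 8) in capitals, and miR-133b-3p shares that seed with the muscle microRNA family miR-133. The windows of 30 nt are from GRCm38.p6, written 5′ to 3′ on the strand of the gene. In Gm8378 (chr12:91682767-91682796, minus strand), Gm12522 (chr3:108382605-108382634, minus strand) and Chodl (chr16:78944762-78944791, plus strand), capitals mark the longest word that is identical to a stretch of miR-133b-3p itself, with T for U. In 4930444E06Rik (chr2:144244704-144244733, plus strand) they mark the word identical to a stretch of miR-30a-5p. In H19 (chr7:142576310-142576339, minus strand), Cct6a (chr5:129794407-129794436, plus strand), Plaa (chr4:94567930-94567959, minus strand) and Vgll4 (chr6:114861029-114861058, minus strand), capitals mark instead a 7-nt word complementary to a seed, that of miR-29 in H19, miR-133 in Cct6a and Plaa, and miR-1 in Vgll4.
miR-133b-3p: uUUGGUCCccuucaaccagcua
miR-30a-5p: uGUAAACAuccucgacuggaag
miR-29a-3p: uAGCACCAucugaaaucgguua
Gm8378: cagtgatgCCCTTCAACCAGCTgatgggat
Gm12522: gccgtccctcTCAACCAGCTgtatgcaatt
Chodl: tacgttaatTTTGGTCCCCTcaacactttt
4930444E06Rik: ctcaggctcgCCTCGACTGGctatagctcc
H19: cacccatagaaaTGGTGCTacccagctcat
Cct6a: tactggttaaaGGACCAAataagcacacac
Plaa: tttcggtactagGGACCAAacctggttgca
Vgll4: ccaaggctgtacACATTCCtctgactatac

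The members belonged to 5245 genes, and 920 of those had a member in every library. By GENCODE gene type, 40.0% ± 6.38 (mean ± SD over 4 libraries) lay in noncoding exons of protein-coding genes, 27.4% ± 7.61 in pseudogenes, 15.9% ± 0.901 in long noncoding RNAs (lncRNAs), 9.22% ± 3.17 in TEC genes (models that GENCODE marks as to be experimentally checked), 5.26% ± 1.33 in snoRNA and scaRNA genes, 1.38% ± 0.379 in snRNA genes and 0.867% ± 0.314 in other small RNA genes. Among the members in protein-coding genes, between 76.7% and 79.9% per library lay in a transcript annotated as a retained intron. Median member length was 65 nt in WT set 1, 62 nt in KO set 1, 76 nt in WT set 2 and 74.5 nt in KO set 2, against 68, 62, 77 and 75 nt for the other listed peaks.

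snoRNA, snRNA and other small RNA members had lower folds than the other listed peaks in every library, and the medians of snoRNAs lay below input in every library. The remaining classes sat near the level of all other peaks. All folds are the deposited log2 values of the immunoprecipitate over its input, where 0 means equal. The median log2 fold of snoRNA members was -3.25 in WT set 1, -3.03 in KO set 1, -1.01 in WT set 2 and -1.17 in KO set 2. It lay below the median of the other listed peaks in 4 of 4 libraries, by a mean of -2.61 ± 1.25 (SD, n = 4). The exact sign-flip permutation test over libraries, two-sided, gave p = 0.125, the smallest value that 4 libraries allow, and 0.292 after Benjamini-Hochberg adjustment over the 7 classes. snRNA members had medians of -2.40, -1.80, -0.69 and 0.04 in the same order, a mean difference of -1.71 ± 1.17, and other small RNA members had medians of -2.33, -2.20, 0.02 and -0.65, a mean difference of -1.79 ± 1.21. Both were below the other peaks in 4 of 4 libraries (exact permutation p = 0.125 each, 0.292 adjusted). The mean differences of lncRNA, pseudogene, TEC and protein-coding members were 0.05 ± 0.22, 0.10 ± 0.16, 0.03 ± 0.19 and 0.02 ± 0.18. No interval of counts stands behind these folds, since the lists give no read numbers.

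**Figure D1:**
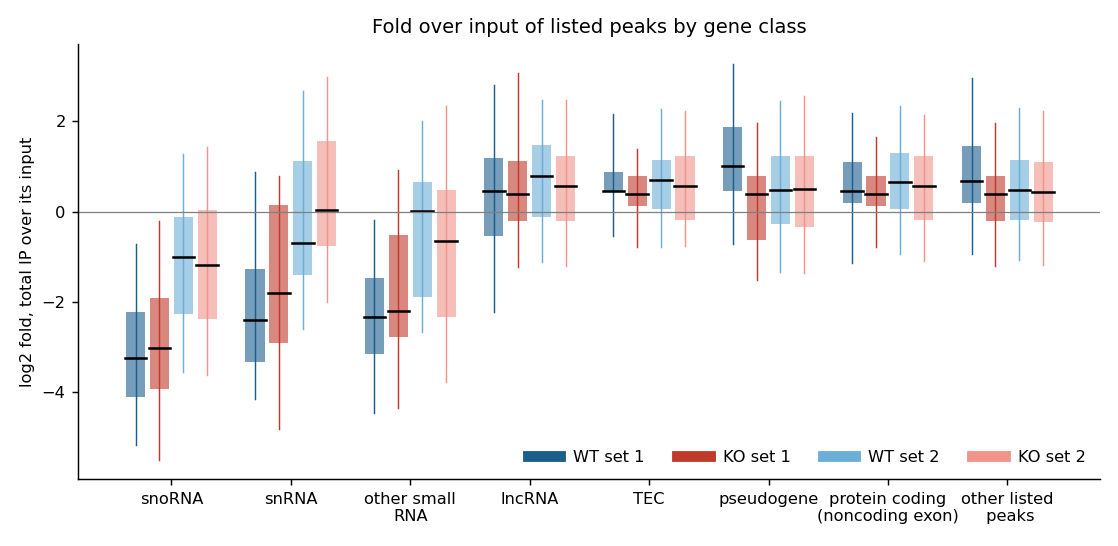
Log2 fold over input (y axis) of listed peaks by gene class, one column per library (dark blue WT set 1, dark red KO set 1, light blue WT set 2, light red KO set 2). Boxes span the quartiles, black bars mark the medians and thin lines run from the 5th to the 95th percentile. snoRNA medians were -3.25, -3.03, -1.01 and -1.17, and those of the remaining listed peaks lay between 0.38 and 0.68.

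A peak was called enriched over input when its log2 fold was at least 3 and its -log10 p at least 3. In WT set 1, 81 of 2617 members were enriched (3.10%, Wilson 95% interval 2.50 to 3.83), beside 3.57% of all its listed peaks. In KO set 1, 36 of 3344 were enriched (1.08%, 0.779 to 1.49), beside 0.848%. Those 36 formed 27 runs in 16 genes, while the intervals given here treat peaks as independent. In WT set 2 the count was 93 of 6614 (1.41%, 1.149 to 1.72), beside 1.42%, and in KO set 2 it was 104 of 6908 (1.51%, 1.24 to 1.82), beside 1.23%. The members' shares were thus near the background in every library. Set against the other listed peaks of the same library, they differed by -0.485, 0.236, -0.0154 and 0.285 percentage points, a mean of 0.00496 ± 0.352 (exact sign-flip permutation test, two-sided, p = 1, n = 4). Without the members in protein-coding genes the mean was 0.544, with members higher in 4 of 4 libraries (exact permutation p = 0.125), and placing peaks by their 5′ end gave 0.294, also higher in 4 of 4 (exact permutation p = 0.125).

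The number of enriched members did not order by genotype. WT over KO was 1.17 on the log2 scale in set 1 and -0.16 in set 2, a mean of 0.50 ± 0.94. With 2 libraries per genotype an exact permutation test cannot go below p = 0.333, so none was run. Pseudogenes moved with the set 1 difference, where they held 51 of the enriched members in WT set 1 and 3 in KO set 1, with 27 in WT set 2 and 39 in KO set 2. Without them the mean log2 ratio was -0.0577, with the sets between -0.138 and 0.022. The whole lists differed in set 1 too, with 3297 listed peaks past the thresholds in WT and 1016 in KO. In set 2 they were 3479 in WT and 3148 in KO. The set 1 difference was thus not particular to members, but among the members it was not seen without the pseudogenes.

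Enriched members came mostly from lncRNAs and pseudogenes. lncRNAs held 17, 27, 22 and 32 enriched members in WT set 1, KO set 1, WT set 2 and KO set 2, which was 4.09%, 5.42%, 1.95% and 2.94% of their members. H19 alone held 5, 13, 10 and 12 of these, some of them adjoining peaks of one stretch. The mean lncRNA share of enriched members was 37.6%. It was 28.2% without H19, an alternative chosen after seeing the data, and 23.6% with genes counted once. snoRNA genes held 0 of 184, 0 of 185, 2 of 279 and 3 of 295. A count of 0 among 184 allows a share of up to 1.63% (3 counts). The enriched share of lncRNA members exceeded that of snoRNA members in 4 of 4 libraries, by 1.23 to 5.42 percentage points (mean 3.16 ± 1.94, exact sign-flip permutation test, two-sided, p = 0.125, the smallest possible). At a log2 fold of at least 4 the mean was 1.32 with a lowest library of -0.00444 (exact permutation p = 0.25), so the shared direction was lost there. The lncRNA minus snoRNA difference was not computed without H19. Protein-coding genes held 11, 6, 32 and 19 enriched members, and TEC genes 2, 0, 10 and 6. Other small RNA genes held none in any library.

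At least 1 enriched member was found in 130 genes, of which 88 had it in 1 library, 21 in 2, 12 in 3 and 9 in all 4. Among the enriched members of WT set 1, 37.0% overlapped an enriched member of WT set 2 by at least 1 nt, and 38.7% did so in the reverse direction. For KO the shares were 55.6% of the set 1 members and 26.9% of the set 2 members, which gives a mean of 39.6% ± 11.9 over the 4 libraries. The other enriched peaks overlapped their own kind at 34.3%, 37.8%, 69.8% and 25.2%. Between genotypes of the same set the members' shares were 24.7% (WT set 1), 58.3% (KO set 1), 65.6% (WT set 2) and 58.7% (KO set 2), and those of the other enriched peaks 21.6%, 71.4%, 54.6% and 60.2%.

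The 9 genes enriched in all 4 libraries were 4 lncRNAs, 2 pseudogenes and 3 protein-coding genes. Their highest log2 folds are given in the order WT set 1, KO set 1, WT set 2 and KO set 2.

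H19, an imprinted lncRNA of embryonic tissue and adult muscle that is also the precursor of miR-675, reached 5.88, 4.31, 4.65 and 5.09. Gm8378, a sense-intronic lncRNA, reached 6.06, 6.05, 3.32 and 6.21. Cct6a, which GENCODE M21 types as a processed transcript although the gene encodes a chaperonin subunit, reached 6.44, 3.10, 3.49 and 3.87. These values overlapped between genotypes, with the KO value above the WT value in set 2 for all 3 genes. 1700020I14Rik, a lincRNA with 22, 27, 36 and 36 members, reached 5.28, 3.23, 3.29 and 3.08.

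The pseudogene Ppp1ccb reached 4.12, 4.38, 4.19 and 4.17, the narrowest spread of the 9. All 8 of its enriched members held a 30-nt word of the coding transcript of Ppp1cc, a catalytic subunit of protein phosphatase 1. Reads of the pseudogene and of its parent cannot be told apart there. The pseudogene Gm12988 reached 4.83, 4.55, 4.42 and 3.85, and 2 of its 4 enriched members shared such a word with Skp1a, a subunit of a ubiquitin ligase. Over all pseudogene members, 68.0%, 72.7%, 71.4% and 70.8% held a 30-nt word found in an annotated coding transcript, against at most 1.0% of lncRNA members and none of the snoRNA members.

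Of the protein-coding genes, Chodl (chondrolectin, a membrane lectin) reached 4.66, 4.99, 4.72 and 4.88 in a noncoding exon. Plaa, a ubiquitin-binding protein, reached 5.02, 3.08, 5.40 and 6.49. Vgll4, a cofactor of TEAD transcription factors, reached 5.14, 3.03, 3.43 and 3.14. KO set 1 had the lowest value of Plaa and Vgll4 and the highest of Chodl, so no direction was shared.

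**Figure D2:**
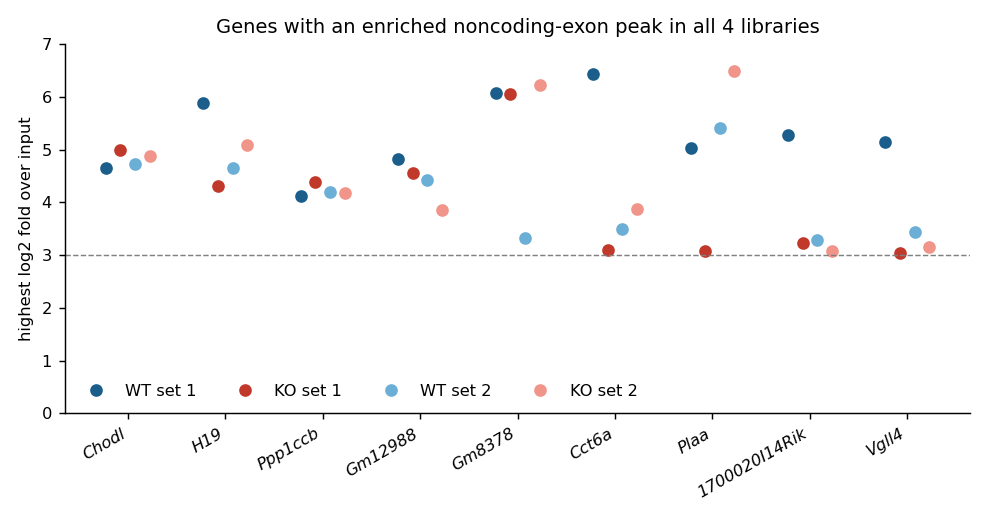
Highest log2 fold over input (y axis) of an enriched member in each of the 9 genes called in every library (x axis), one point per library. The dashed line is the threshold of 3, and Ppp1ccb (4.12 to 4.38) and Chodl (4.66 to 4.99) had the tightest points.

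Several of the highest members were as short as a microRNA and shared words with miR-133b-3p, as printed above. The enriched run in Chodl was 23, 25, 24 and 24 nt long in WT set 1, KO set 1, WT set 2 and KO set 2, and that in Gm8378 was 27, 26, 27 and 26 nt. The capitals of Gm8378 cover 14 nt that are identical to the 3′ part of miR-133b-3p, and those of Chodl cover 11 nt identical to its 5′ part. Gm12522, a processed transcript named after its values were seen, had a run of 26 nt in WT set 1 at a log2 fold of 4.60, with 3.73 in KO set 1, 3.06 in WT set 2 (below the p threshold) and 4.24 in KO set 2. 4930444E06Rik had 3 members in KO set 1, in a run of 22 nt at a log2 fold of 4.58, and no member in the other libraries.

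Such words were counted in all members. An identical stretch of at least 10 nt of the 5 microRNAs used here (miR-206-3p for the miR-1 seed, miR-133b-3p, let-7a-5p, miR-29a-3p and miR-30a-5p) was present at 4 of 81 enriched members in WT set 1 (4.94%), 9 of 36 in KO set 1 (25%), 6 of 93 in WT set 2 (6.45%) and 7 of 104 in KO set 2 (6.73%). Among members not past the thresholds the shares were 0.473%, 0.665%, 0.414% and 0.367%. Among enriched peaks elsewhere, outside microRNA genes, they were 2.24%, 9.70%, 2.57% and 3.11%. These enriched members lay in Chodl, Gm8378, Gm12522, 4930444E06Rik and Mmp12, and the word length was chosen after values had been seen. Adjoining peaks of one run were counted singly, so the shares are of peaks and not of separate sites. The 9 in KO set 1 were a run of 3 peaks in 4930444E06Rik and runs of 2 peaks each in Chodl, Gm8378 and Gm12522. That library had 27 enriched runs. The part that reads of the microRNAs themselves have in these folds was not tested.

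A broader comparison with all mature microRNAs of the RefSeq table gave shares on both sides of the background. An alignment score of at least 14 (match 1, mismatch -1, gap -2) to some mature microRNA was reached at 1.23%, 8.33%, 9.68% and 6.73% of enriched members, against 7.57%, 8.22%, 6.95% and 7.13% of the members not enriched. For enriched peaks in introns the shares were 34.8%, 35.6%, 15.6% and 19.5%, and in microRNA genes 92.4%, 91.7%, 92.7% and 94.8%.

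Seed matches were searched in windows of 50 nt on each side of the midpoint, on the strand of the peak only. The words were ACATTCC for miR-1, GGACCAA for miR-133, CTACCTC for let-7, TGGTGCT for miR-29 and TGTTTAC for miR-30, and no word contains another. At least 1 of the 5 was present at 14.3% of members in WT set 1, 9.90% in KO set 1, 9.24% in WT set 2 and 8.95% in KO set 2. The other listed peaks had 12.7%, 8.53%, 8.12% and 7.74%. Members were higher in 4 of 4 libraries, by 1.32 ± 0.212 percentage points (exact sign-flip permutation test, two-sided, p = 0.125, the smallest possible), and this difference turned to -0.279 without the members in protein-coding genes. By family, miR-1, miR-133 and miR-29 words were more frequent in members in 4 of 4 libraries (differences of 0.685, 0.318 and 0.920 points), and let-7 and miR-30 words less frequent in 4 of 4 (-0.436 and -0.163 points).

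Enriched members held one of the words at 25.9%, 36.1%, 24.7% and 24.0%, and the other enriched peaks at 28.4%, 21.1%, 26.8% and 27.0%. No common direction was seen. In snoRNA members the share was 4.89%, 4.32%, 6.45% and 4.75%, and in lncRNA members 13.5%, 9.04%, 8.23% and 9.36%. A match is a word in a window and was not tested as a binding site.

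H19 had enriched members throughout, 5 of 13 in WT set 1, 13 of 22 in KO set 1, 10 of 33 in WT set 2 and 12 of 28 in KO set 2. All of its members lay above input. Over the members listed in each library the median log2 fold was 1.42 in WT set 1 and 3.11 in KO set 1. In set 2 it was 2.32 in WT and 2.48 in KO, so by this median KO was above WT in both sets. The listed peaks differ between libraries, so the medians do not compare the same positions. The gene spans 2615 nt of chromosome 7 (142575529 to 142578143, minus strand), with Mir675 at 996 to 1080 nt from its 5′ end, and the highest members stood downstream of Mir675, at or next to the miR-29 word printed above (1816 nt) in WT set 1, WT set 2 and KO set 2 and at 1732 nt in KO set 1, upstream of the word. The peaks at that word had log2 folds over input of 5.77 in WT set 1, 3.85 and 4.27 in KO set 1, 4.65 in WT set 2 and 5.00 in KO set 2. WT was above KO in set 1 and below it in set 2.

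The lists that set one genotype directly over the other gave H19 the same direction in both sets. That direction, WT above KO, was opposite to the direction of the H19 medians over input, which are over different peaks in each library. At the miR-29 word the folds over input shared no direction between the sets. The direct lists are not centred on 0. The median of the other listed peaks was 0.74 in WT over KO of set 1, 0.29 in WT over KO of set 2, 0.71 in KO over WT of set 1 and 0.27 in KO over WT of set 2, and 19.6%, 33.0%, 32.5% and 37.5% of them lay below 0. WT over KO was above 0 at 13 of 13 members in set 1 (median 1.21, 0.53 to 3.27) and at 33 of 33 in set 2 (median 1.08, 0.80 to 1.48). KO over WT was below 0 at 22 of 22 in set 1 (median -0.97) and at 28 of 28 in set 2 (median -1.02). Both directions of a set compare the same pair of immunoprecipitates, so the KO over WT signs are not independent of those of WT over KO. At the miR-29 word the direct WT over KO fold was 3.12 in set 1 and 0.80 in set 2. The direct lists compare the immunoprecipitates and use no input, so the amount of H19 RNA and its binding cannot be told apart in them, and peaks of one gene in one library are not replicates.

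**Figure D3:**
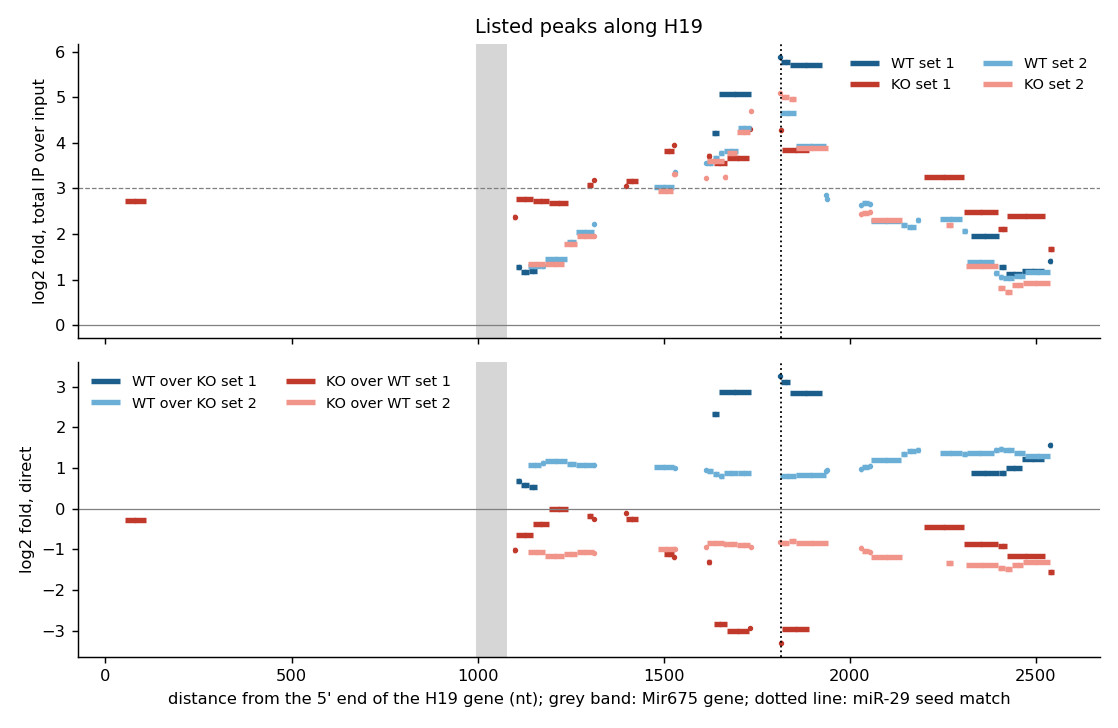
Listed peaks along H19, by distance in nt from its 5′ end (x axis), with log2 fold over input in the upper panel (dashed line at 3) and log2 fold of one genotype over the other in the lower panel, where each bar is a peak. Over input the highest peak stood at or next to the miR-29 word (dotted line, 1816 nt) in all libraries except KO set 1, where it stood at 1732 nt. In the lower panel all WT over KO peaks lay above 0 and all KO over WT peaks below it. Both directions of a set compare the same pair of immunoprecipitates and are not independent.

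The other imprinted genes of the list examined (8 genes, 5 with a member) had no enriched member. Airn had medians of -0.51, 0.02, 1.17 and 0.62 over 4, 1, 5 and 5 members. Meg3 and Rian, both from the Dlk1-Dio3 domain, had no member in WT set 1. Meg3 had medians of 0.97 in KO set 1 (1 member), -0.43 in WT set 2 and 0.17 in KO set 2, and Rian had 1.12 (3 members), 0.06 and 1.24.

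Among 7 nuclear lncRNAs, 6 had a member and only Tug1 was enriched, with 1 member in KO set 1 (highest log2 fold 3.71) and 2 in KO set 2 (3.99), against highest values of 2.52 in WT set 1 and 2.80 in WT set 2. Malat1, an abundant RNA of nuclear speckles, had 24, 29, 50 and 61 members at medians of -2.04, -0.59, -0.54 and -0.56. Neat1, the scaffold of paraspeckles, had 30, 25, 153 and 88 members at medians of -1.46, -1.07, 1.37 and 1.11, so it stood below input in set 1 and above it in set 2 in both genotypes. In the direct lists Neat1 was above 0 in WT over KO at 153 of 153 members of set 2 (median 1.59) but at 14 of 30 in set 1 (median -0.28). KO over WT gave 0 of 88 above 0 in set 2 (median -1.48) and 25 of 25 in set 1 (median 0.90, beside 0.71 for the other peaks of that list). Relative to its lists, Neat1 was high in WT over KO of set 2 and not in set 1. The H19 medians in WT over KO were above those of the other peaks in both sets. In set 1, however, the H19 median of 1.21 lay below the upper quartile of the other peaks (1.74). In set 2 the H19 median of 1.08 lay above that quartile (0.86). Malat1 had medians of -0.25 and 0.06 in WT over KO of sets 1 and 2, and of 0.32 and -0.06 in KO over WT.

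**Figure D4:**
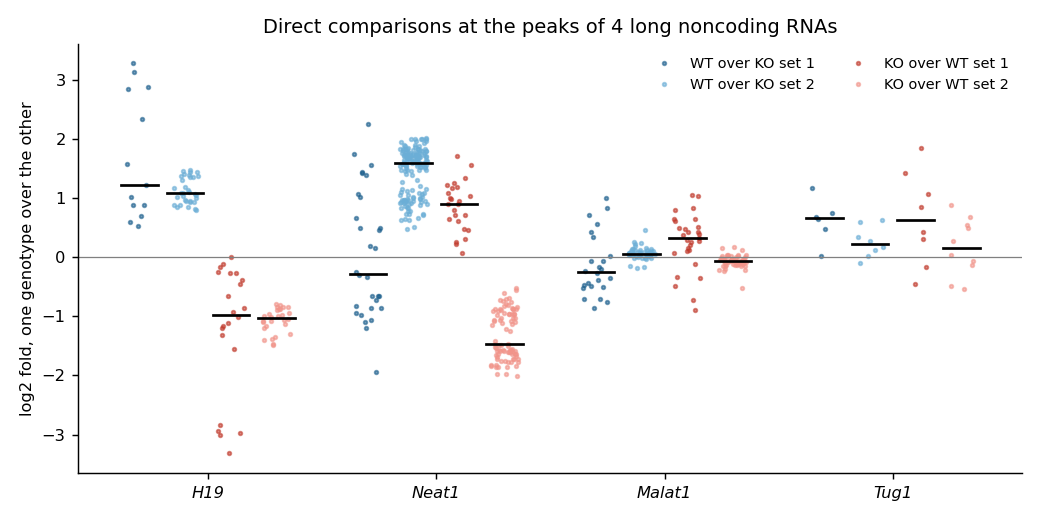
Log2 fold of one genotype's immunoprecipitate over the other's (y axis) at every member of H19, Neat1, Malat1 and Tug1, one column per direct list, with the median as a black bar. H19 medians were 1.21 and 1.08 in WT over KO, while Neat1 medians were -0.28 in set 1 and 1.59 in set 2.

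Few members passed the thresholds in the direct lists. In WT over KO of set 1, 11 of 2614 members in 6 genes passed (0.421%), beside 0.469% of all its listed peaks. In KO over WT of set 1, 7 of 3339 in 4 genes passed (0.210%), beside 0.179%. In set 2, 0 of 6615 passed in WT over KO, beside 0.0192%, and 4 of 6901 in 2 genes in KO over WT (0.0580%), beside 0.0144%. No gene passed in both sets.

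The highest member in WT over KO of set 1 was in Gm5422 (log2 fold 4.25), a pseudogene that shares a word with the proteasome subunit gene Psmd2. The overlapping peak of set 2 stood at -0.88. Glns-ps1, a pseudogene of the glutamine synthetase gene Glul, passed at all 4 of its members in set 1 (3.01 to 3.98), while its 3 members in set 2 lay between -1.45 and -1.02. Gm45094 (3.86), Gm11633 (3.41), Rpl3-ps1 (3.30) and H19 (3.27) made up the rest. In KO over WT of set 1 the highest was 4930444E06Rik (5.62), printed above with its miR-30a-5p word, then A330023F24Rik (3.36), Ryr1 (3.30) and Gm43947 (3.01). In KO over WT of set 2 the snRNA gene Gm24497 (3.23) and the glycolytic gene Gpi1 (3.20) passed. Of the genes passing in KO over WT, only 4930444E06Rik also reached a log2 fold of 3 over input (4.58). Over the KO set 1 input, the passing peaks stood at 0.09 and 0.12 in Ryr1 and 0.38 in Gm43947. Over the KO set 2 input they stood at -0.05 and -0.19 in Gm24497 and at -0.35 and 0.91 in Gpi1. Of the genes passing in WT over KO, Gm45094 (2.57) and Gm11633 (2.12) stayed below 3 over input. Ryr1, the calcium release channel of muscle, and Gpi1 were named after their values were seen. The log2 ratio of WT over KO to KO over WT counts, with 1 added to each, was 0.58 in set 1 and -2.32 in set 2, a mean of -0.87 ± 2.06.

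At a lower direct threshold of a log2 fold of 1, 147 members of WT over KO set 2 passed (2.22%, beside 0.403% of all listed peaks), of which Neat1 gave 117 and H19 gave 21. In WT over KO set 1, 146 passed (5.59%, beside 4.85%), with 8 from H19 and 5 from Neat1. Both lncRNAs held all but 9 of the set 2 members. In KO over WT, 33 of 3339 passed in set 1 (0.988%, beside 0.755%), with 8 from Neat1 and none from H19. In set 2, 39 of 6901 passed (0.565%, beside 0.144%), none of them from either gene.

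Within the snoRNAs, 117 genes had a member in every library. Their median was below 0 in all 4 libraries for 80 genes and above 0 in all 4 for 1, Snord4a. Set 2 lay above set 1 for 112 of the 117 in WT and for 105 in KO. The class medians of set 2 exceeded those of set 1 by 2.24 in WT and 1.86 in KO, while KO minus WT was 0.22 in set 1 and -0.16 in set 2. The sets thus differed more than the genotypes did.

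The classes of snoRNA were split by symbol only. Those with Snora symbols (H/ACA, which mostly guide pseudouridylation) had medians of -4.05, -4.01, -1.53 and -1.76 over 37, 41, 57 and 59 members. Those with Snord symbols (C/D, which mostly guide methylation) had medians of -2.86, -2.62, -0.16 and -0.03 over 46, 49, 64 and 65 members. Members whose symbol names no class had medians of -3.26, -3.22, -1.41 and -1.61 over 92, 89, 148 and 159 members and were not assigned. The median over Snord members was higher than that over Snora members in every library, with overlap between single genes. At the low end stood Snora74a (-4.93, -4.30, -4.16, -4.56), Snora81 (-4.14, -4.76, -5.18, -5.13) and Snora73a (-5.19, -4.24, -4.13, -4.46). At the high end stood Snord4a (0.40, 0.21, 3.06, 4.01), Gm23130 (1.44, -0.48, 4.0, 3.84) and Snord47 (-1.31, -0.96, 2.47, 1.78). The enriched snoRNA members were those of Snord4a and Gm23130 in both set 2 libraries and of Gm22620 in KO set 2 (4.04). All snoRNA genes named here were chosen after their values were seen. Peaks covered a median of 63.7%, 69.9%, 87.7% and 81.0% of a snoRNA gene that had one.

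**Figure D5:**
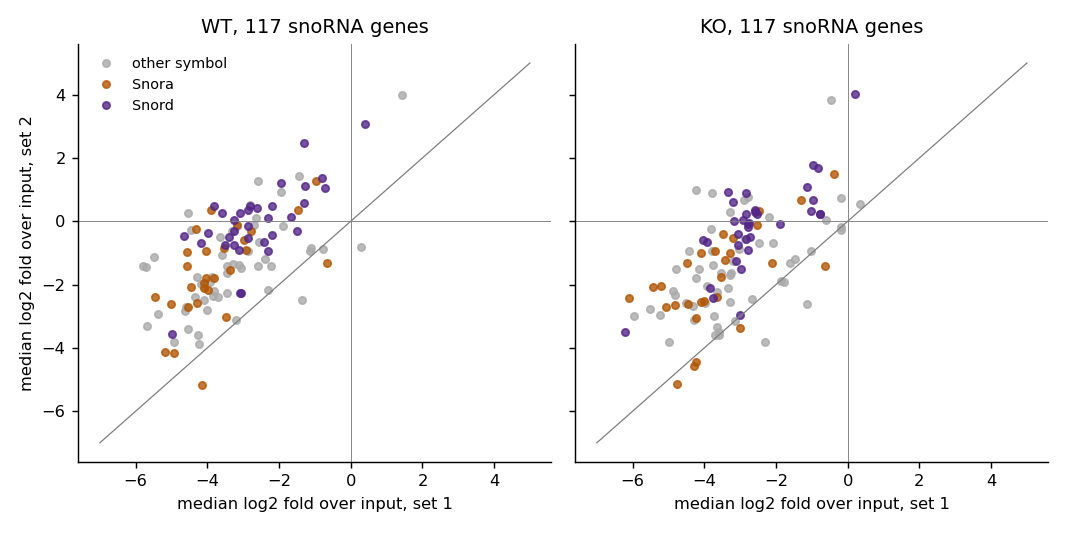
Median log2 fold over input of each snoRNA gene with members in all 4 libraries, set 1 (x axis) against set 2 (y axis), for WT (left) and KO (right), with the line of equal values. Of 117 genes, 112 lay above the line in WT and 105 in KO, and the purple (Snord) and orange (Snora) points overlap.

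Among the small RNAs made by RNA polymerase III (9 genes on the list, 7 with a member), none was enriched. Rmrp, the RNA of RNase MRP, had medians of -5.01, -5.29, -3.98 and -3.83. Rn7sk, which holds back transcription elongation, had -3.67, -3.31, -2.70 and -2.75. The Y RNAs Rny1 (-2.16, -1.41, 0.12, 0.49) and Rny3 (-1.28, -0.28, 2.10, 2.40) were below input in set 1 and, unlike those, above it in set 2.

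Of the snRNAs, Rnu12 of the minor spliceosome had medians of -5.28, -5.67, -4.60 and -4.24 and Rnu11 had -3.78, -2.89, -1.77 and -1.08. Enriched snRNA members occurred only in KO set 2, 5 in all, at Gm22295 (3.30), Gm24260 (3.19) and Gm24713 (3.08). These snRNA genes were named after their values were seen, and since snRNAs exist in many near-identical copies, the assignment of reads to a copy is uncertain.

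The hosts of snoRNAs and microRNAs contributed little. Of 17 snoRNA host genes, 7 had a member and none was enriched, Gas5 among them with medians of -0.59, -0.74 and -0.31 in KO set 1, WT set 2 and KO set 2. Of 11 microRNA hosts, 2 had a member and none was enriched. In Ank1, the protein-coding host of miR-486, named after its values were seen, WT set 1 had 1 enriched member (3.75), WT set 2 had 1 member at 1.80, KO set 2 had 1 at 1.5 and KO set 1 had none.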

How the data were processed

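Total Ago2 eCLIP of WT and mir-486 KO tibialis anterior was analysed in 2 libraries per genotype, over input in 4 lists and genotype against genotype in 4 lists. The submitters' processing notes name UMI-tools, cutadapt, STAR, SAMtools and FastQC with GRCm38 and mm10, and the methods name CLIPper for peak calling in each library. The deposited lists give, per peak, the log2 fold and -log10 p-value that the authors computed against the input or the other genotype. The -log10 p is capped at 400 and is 0 at every peak with a negative log2 fold. Read counts were not analysed here, so the depth behind each fold is unknown and intervals on shares cover counting error only. Those intervals treat peaks as independent and are too narrow where adjoining peaks form one run. Low values were not filtered out. Many peaks share the same fold: 20.4%, 27.1%, 10.7% and 10.9% of members stand at the commonest value of their list.

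Peaks were placed by midpoint on GENCODE M21 (the labels name a later release of the same assembly), and in 2.30% to 4.13% of members per library the midpoint lay in exons of several genes, where the class took a fixed order (snoRNA, snRNA, other small RNA, lncRNA, TEC, pseudogene, protein-coding). Python 3.11.15, pandas 2.3.3, scipy 1.17.1 and pysam 0.24.0 were used. Shares were compared within libraries by exact sign-flip permutation tests over libraries, and no test was made between genotypes. Placement, calls and the alignment score were tested on simulated data, and the searches for exact words were not. Genes were named when enriched in all 4 libraries, when among the 3 highest outside protein-coding genes in a direct list, or when on a list of imprinted, nuclear, snoRNA-host, polymerase III or microRNA-host genes (Snhg7, Snhg16 and Mir100hg were not matched). The members and lists were chosen with earlier results of these data known. Alternatives were the peak end, whole containment, single gene classes left out, other thresholds and overlaps, and each set left out. The seed word of miR-486-5p and the miR-486-enriched libraries were not used here.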

Additional observations from a re-analysis of the deposited data

How the results depend on the processing

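Of 95 alternatives over 9 results, 79 kept the direction of the result (and, where there was no test, stayed within 1 SD of it), 5 moved a value and 11 turned its sign. The share of listed peaks that were members (2.76%) was 3.51% by the 5′ end, 2.50% for peaks wholly inside the exon, 1.66% without protein-coding genes and 2.00% without pseudogenes. The recurrence of enriched members between sets (39.6%) was 24.3% when an overlap of 50% was asked. The difference in enriched share between members and other peaks (0.00496 points) became -0.346 without pseudogenes, -0.0994 at a -log10 p of 2 and 0.544 without protein-coding genes. It was 0.294 by the 5′ end and -0.220 without H19, an alternative chosen after seeing the data. With genes counted once it was -9.57, but there a gene counts as enriched when any of its peaks is. That value therefore also depends on the number of peaks per gene and is not on the same scale. The WT over KO ratio of enriched members (0.50) became -0.0577 without pseudogenes. The ratio of the direct counts (-0.87) became 2.00 at a log2 fold of 1 and 0.45 at a -log10 p of 2. The seed word difference (1.32 points) became -0.279 without protein-coding genes.

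Leaving out each set in turn gave 2.70% to 2.81% for the member share, -0.125 to 0.135 for the difference in enriched share, -0.16 to 1.17 for the enriched ratio, -2.32 to 0.58 for the direct ratio, 27.2% to 48.0% for the lncRNA share and 0% to 2.52% for the snoRNA share of enriched members, 1.16 to 1.48 for the seed word difference and 1.57 to 4.75 for lncRNA minus snoRNA. The cause of these changes was not tested. With set 1 or set 2 alone the genotype ratios therefore point in opposite directions. The lncRNA minus snoRNA difference (3.16 points) was 11.96 at a log2 fold of 1 and 1.32 at 4. The genotype ratios were taken within each set, and with 2 sets no paired test was run on them. Without read counts, precision per peak is unknown.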
